A study of Homo sapiens with 27 samples.

Results

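Among VPS37A, VPS37B and VPS37C, cells in which only VPS37C was untargeted were compared with cells in which only VPS37B was. The cells were DLD1, a human colorectal carcinoma line. The first group, siVPS37AB#1, received small interfering RNAs (siRNAs) against VPS37A and VPS37B, and the second, siVPS37AC#1, received siRNAs against VPS37A and VPS37C. Both groups therefore share the VPS37A siRNA and differ in which further paralog was targeted. Each group has 3 libraries, so 6 of the 27 libraries of the study enter the comparison, paired by the replicate number that opens each label. The remaining libraries are 3 each of siVPS37ABC#1, siVPS37BC#1, siVPS37A#1, siVPS37B#1 and siVPS37C#1, of siCTRL#1 (control siRNA), and of NT (no transfection). RNA was collected 72 h after transfection and measured with a human transcriptome amplicon panel. VPS37A, VPS37B and VPS37C were each targeted by 1 siRNA sequence. Loss of a paralog and other effects of its siRNA therefore cannot be told apart in any result below.

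VPS37 proteins are alternative subunits of ESCRT-I, a complex on endosomes that also contains TSG101, VPS28 and either UBAP1 or an MVB12 protein. ESCRT-I binds ubiquitinated membrane proteins, among them activated receptors, and passes them towards the lysosome for degradation. Each complex takes up a single VPS37 paralog, which is why the remaining paralog is of interest when others are depleted.

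Levels are given as TPM, parts of a library total of 1000000. Differences are of log2(TPM + 1), siVPS37AB#1 minus siVPS37AC#1 unless other groups are named, each with its standard error (SE); they were fitted with limma to all 27 libraries, the replicate number being a block. This log2 scale understates changes of genes with few TPM. A gene was called where its p, adjusted by the Benjamini-Hochberg method over the 6458 genes that averaged 10 TPM or more, was under 0.05. The depth of each library is unknown. The SE rests on the spread between replicates pooled over all 9 groups. Epithelial marker transcripts (EPCAM, CDH1, keratins and others, 10 of 12 listed genes in the table) summed to between 10389 and 11264 TPM in siVPS37AB#1 and between 10453 and 11154 TPM in siVPS37AC#1. The fibroblast, leukocyte and endothelial markers in the table (5 of 30 listed) summed to at most 10.7 TPM per list in siVPS37AB#1 and 12.4 TPM in siVPS37AC#1.

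The targeted transcripts went with the labels. VPS37B had 2.04, 2.55 and 2.28 TPM in siVPS37AB#1, against 58.8, 79.0 and 54.7 TPM in siVPS37AC#1, with no overlap (log2 -4.29 ± 0.18, SE; adjusted p = 4.00e-15). VPS37C had 22.4, 23.1 and 25.4 TPM in siVPS37AB#1, against 3.11, 4.25 and 4.69 TPM in siVPS37AC#1 (2.31 ± 0.20, adjusted p = 2.87e-08). The remaining paralog was not called against siCTRL#1 in either case: VPS37C differed from siCTRL#1 by 0.41 in siVPS37AB#1 (adjusted p = 0.126) and VPS37B by 0.45 in siVPS37AC#1 (adjusted p = 0.115). VPS37A, too low for the test, was at 0.146, 0.458 and 0.36 TPM in siVPS37AB#1 and at 0.593, 0.464 and 0.528 TPM in siVPS37AC#1, where siCTRL#1 averaged 5.803 TPM.

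**Figure D1:**
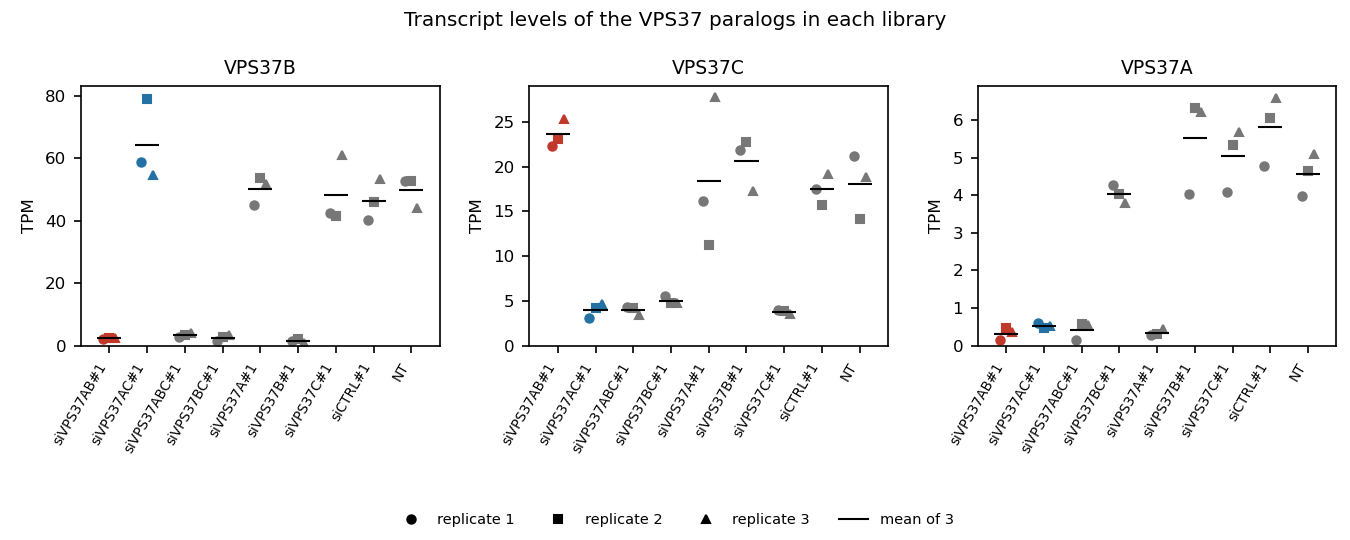
TPM (linear axes) of VPS37B, VPS37C and VPS37A in each of the 27 libraries by group, with replicates as circles, squares and triangles and the mean of 3 as a bar. VPS37B lies at 2.04 to 2.55 TPM in siVPS37AB#1 and at 54.7 to 79.0 TPM in siVPS37AC#1, VPS37C at 22.4 to 25.4 and at 3.11 to 4.69 TPM, and VPS37A under 1 TPM in both.

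Among the partners of VPS37 in ESCRT-I, VPS28, a core subunit, was higher where VPS37C remained. VPS28 had 58.4, 54.4 and 46.2 TPM in siVPS37AB#1, against 30.5, 28.4 and 29.9 TPM in siVPS37AC#1 (0.81 ± 0.19, adjusted p = 0.00523), and the groups did not overlap. The siCTRL#1 mean of 44.2 TPM lay between them. TSG101, the subunit that binds ubiquitin, had 126, 126 and 134 TPM in siVPS37AB#1 and 92.5, 111 and 101 TPM in siVPS37AC#1 (0.34 ± 0.10, adjusted p = 0.0234). That call was lost without the block (adjusted p = 0.163) and on leaving out any library but siVPS37AB#1 replicate 2 (adjusted p up to 0.147), and without pair 3, described below (adjusted p = 0.153). UBAP1 (0.41 ± 0.17, adjusted p = 0.115) was not called, and MVB12A and MVB12B were too low to be tested.

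Of the 6458 genes tested, 786 differed between siVPS37AB#1 and siVPS37AC#1 (12.2%), 462 of them higher (7.15%) and 324 lower (5.02%) in siVPS37AB#1. Changes of over 2-fold were more often rises, with 45 higher and 10 lower. The median log2 difference of all tested genes was 0.01 and the median SE 0.14. Without the block 331 genes were called, 220 higher and 111 lower. The number fell to 401 without siVPS37AB#1 replicate 1, 468 without siVPS37AB#1 replicate 3, 422 without siVPS37AC#1 replicate 1 and 518 without siVPS37AC#1 replicate 2. Pair 3, of replicates numbered 3, came from different sequencing library numbers in the labels (89 for siVPS37AB#1 and 88 for siVPS37AC#1), whereas the other pairs shared theirs. With that pair left out of both groups 403 genes were called. Unless an exception is given beside it, a gene named below kept its call for siVPS37AB#1 against siVPS37AC#1 in these alternatives. They are the 6 omissions of a library, no block, and pair 3 left out. Calls against siCTRL#1 or siVPS37ABC#1 were not rerun in them. Most named genes were chosen for their values in the same libraries, so a lack of overlap between groups describes them and adds no support. The share of all tested genes without overlap is not given, so these statements do not set the named genes apart.

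**Figure D2:**
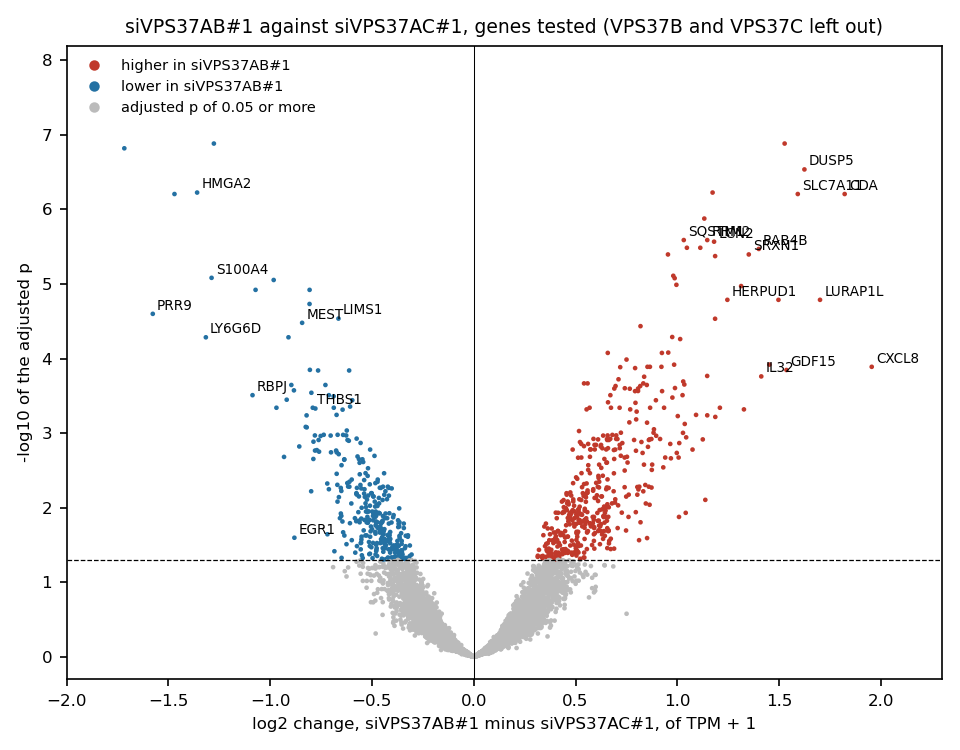
Log2 difference of TPM + 1, siVPS37AB#1 minus siVPS37AC#1, against -log10 of the adjusted p for tested genes, with VPS37B and VPS37C left out for scale; red points are higher and blue points lower in siVPS37AB#1 past the dashed line at an adjusted p of 0.05. Labels mark some of the genes named in the text. CXCL8 has the largest rise shown at 1.95, and HMGA2 stands at -1.36.

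Apart from VPS37C, the largest rises past the threshold were those of CXCL8, CDA, LURAP1L and DUSP5. CXCL8, which attracts neutrophils, had 139, 95.1 and 181 TPM in siVPS37AB#1, against 24.0, 46.1 and 34.8 TPM in siVPS37AC#1 (1.95 ± 0.31, adjusted p = 1.29e-04). CDA, cytidine deaminase, had 53.2, 57.8 and 49.9 TPM in siVPS37AB#1, against 9.42, 23.3 and 13.5 TPM in siVPS37AC#1 (1.82 ± 0.19, adjusted p = 6.20e-07). GDF15, a stress-induced secreted factor, had 2886, 1640.0 and 1692 TPM in siVPS37AB#1 and 769.8, 783 and 543 TPM in siVPS37AC#1 (1.54 ± 0.24, adjusted p = 1.42e-04). No library of siVPS37AB#1 overlapped siVPS37AC#1 for these genes. RAB4B, a small GTPase of endosome recycling (1.40 ± 0.17, adjusted p = 3.38e-06), POLD4, a subunit of DNA polymerase delta (1.31 ± 0.17, adjusted p = 1.06e-05), and LURAP1L (1.70 ± 0.23, adjusted p = 1.63e-05) were also among the 12 largest rises of genes that averaged 20 TPM or more and rose in each pair.

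The cytokine and chemokine list had 6 of 9 tested members higher and 1 lower, with a median of 0.97, where 7.15% and 5.02% of all tested genes were called higher and lower. The same shares stand beside every list count of this comparison below. The lists were chosen with earlier results of these data known, so a share above that of all genes may follow in part from that choice. IL32, a proinflammatory cytokine, had 118, 128 and 123 TPM in siVPS37AB#1, against 40.5, 54.3 and 43.1 TPM in siVPS37AC#1 (1.41 ± 0.23, adjusted p = 1.74e-04). CXCL2, another neutrophil attractant, had 44.1, 24.7 and 40.1 TPM in siVPS37AB#1 and 8.73, 15.7 and 13.4 TPM in siVPS37AC#1 (1.45 ± 0.23, adjusted p = 1.20e-04). All 3 siVPS37AB#1 libraries were above all 3 siVPS37AC#1 libraries for both genes. LCN2, an iron-binding innate immune protein, rose by 1.1804 ± 0.14 (adjusted p = 2.70e-06). IL18 (0.66) and LIF (0.97), a pair of cytokines chosen after their values were seen, completed the rises. The exception, also chosen after its values were seen, was CXCL5, a chemokine of the same family as CXCL2 and CXCL8: CXCL5 had 271, 265 and 243 TPM in siVPS37AB#1, against 383, 437 and 398 TPM in siVPS37AC#1 (-0.64, adjusted p = 0.00106).

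Set against siCTRL#1, whose libraries are shared by both values, 7 of the 9 cytokine genes were higher in siVPS37AB#1 and 4 in siVPS37AC#1, where 18.1% and 8.3% of all tested genes were higher. The same shares stand beside the counts against siCTRL#1 of the lists below. In each replicate, the siCTRL#1 library number (88, 88 and 603) differed from those of both groups. IL32 stood 2.77 above siCTRL#1 in siVPS37AB#1 (adjusted p = 2.83e-09) and 1.36 above it in siVPS37AC#1 (adjusted p = 3.22e-04). For CXCL8 the values were 2.56 in siVPS37AB#1 (adjusted p = 8.62e-07) and 0.60 in siVPS37AC#1 (adjusted p = 0.222, not called).

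NF-kB is a family of transcription factors that inflammatory receptors activate, and several of its subunits and inhibitors are themselves its targets. Of 14 tested genes of this pathway 6 were higher and none lower in siVPS37AB#1, with a median of 0.37. The count was 4 without the block, 4 with pair 3 left out, and between 4 and 6 on leaving out single libraries. TNIP1, an inhibitor of the pathway that binds ubiquitin, had 205, 175 and 199.7 TPM in siVPS37AB#1 and 110.0, 105 and 108 TPM in siVPS37AC#1 (0.83 ± 0.14, adjusted p = 2.15e-04). NFKB2, the subunit precursor p100, had 179.6, 146 and 162 TPM in siVPS37AB#1 and 83.8, 101 and 89.6 TPM in siVPS37AC#1 (0.82 ± 0.16, adjusted p = 0.00132). RELB, the partner of the processed subunit, had 38.0, 41.8 and 58.2 TPM in siVPS37AB#1 and 18.6, 24.3 and 33.0 TPM in siVPS37AC#1 (0.85 ± 0.16, adjusted p = 7.24e-04). The inhibitor NFKBIA rose by 0.67 ± 0.12 (adjusted p = 4.57e-04). For TNIP1, NFKB2 and RELB the groups did not overlap. Values against siCTRL#1 called 10 of the 14 genes higher in siVPS37AB#1 and 3 in siVPS37AC#1.

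Promoters of the genes of these 2 lists are shown because they carry the binding letters of NF-kB, and because genes with the same letters moved in different directions. RefSeq promoters on GRCh38.p14, 250 bases before to 50 after each start, held the kB consensus on either strand in 2075 of 35116 cases (5.91%). Of the 23 tested genes, 17 had a promoter in the table. The consensus was found for 7 of the 8 matched genes that rose, for the 1 that fell and for 3 of the 8 that were not called. The lists were drawn up as NF-kB genes and cytokines, so a share above that of all promoters follows from their choice. Counted on both strands, the promoters shown of CXCL2, CXCL5 and IL32 held 2 matches each and that of NFKB2 held 4, of which the first is printed. The windows below run 5′ to 3′ along the gene with the first consensus match in capitals, at chr4:74099254-74099283 (minus strand) for CXCL2, chr4:73998749-73998778 (minus) for CXCL5, chr16:3065294-3065323 (plus) for IL32, chr5:151081057-151081086 (minus) for TNIP1, chr10:102394461-102394490 (plus) for NFKB2 and chr4:102501300-102501329 (plus) for NFKB1.
CXCL2: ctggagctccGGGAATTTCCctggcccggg
CXCL5: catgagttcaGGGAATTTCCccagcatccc
IL32: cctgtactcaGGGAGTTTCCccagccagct
TNIP1: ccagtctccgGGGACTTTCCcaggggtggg
NFKB2: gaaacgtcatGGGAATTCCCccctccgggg
NFKB1: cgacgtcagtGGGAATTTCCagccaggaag
CXCL2, CXCL5 and NFKB1 hold the same 10 letters. So do 2 genes not shown, CXCL3 (0.64, adjusted p = 0.0591, not called) and NFKBIB (0.49, adjusted p = 0.0164). The NFKBIB call was lost without replicate 1 or 3 of either group (adjusted p up to 0.102), without the block (0.119) and without pair 3 (0.165). CXCL2 rose by 1.45 and CXCL5 fell by 0.64, while NFKB1 had 20.9, 18.8 and 23.1 TPM in siVPS37AB#1 and 20.2, 19.3 and 21.0 TPM in siVPS37AC#1 (log2 0.05, adjusted p = 0.833). A match describes the letters of the window and does not show binding.

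**Figure D3:**
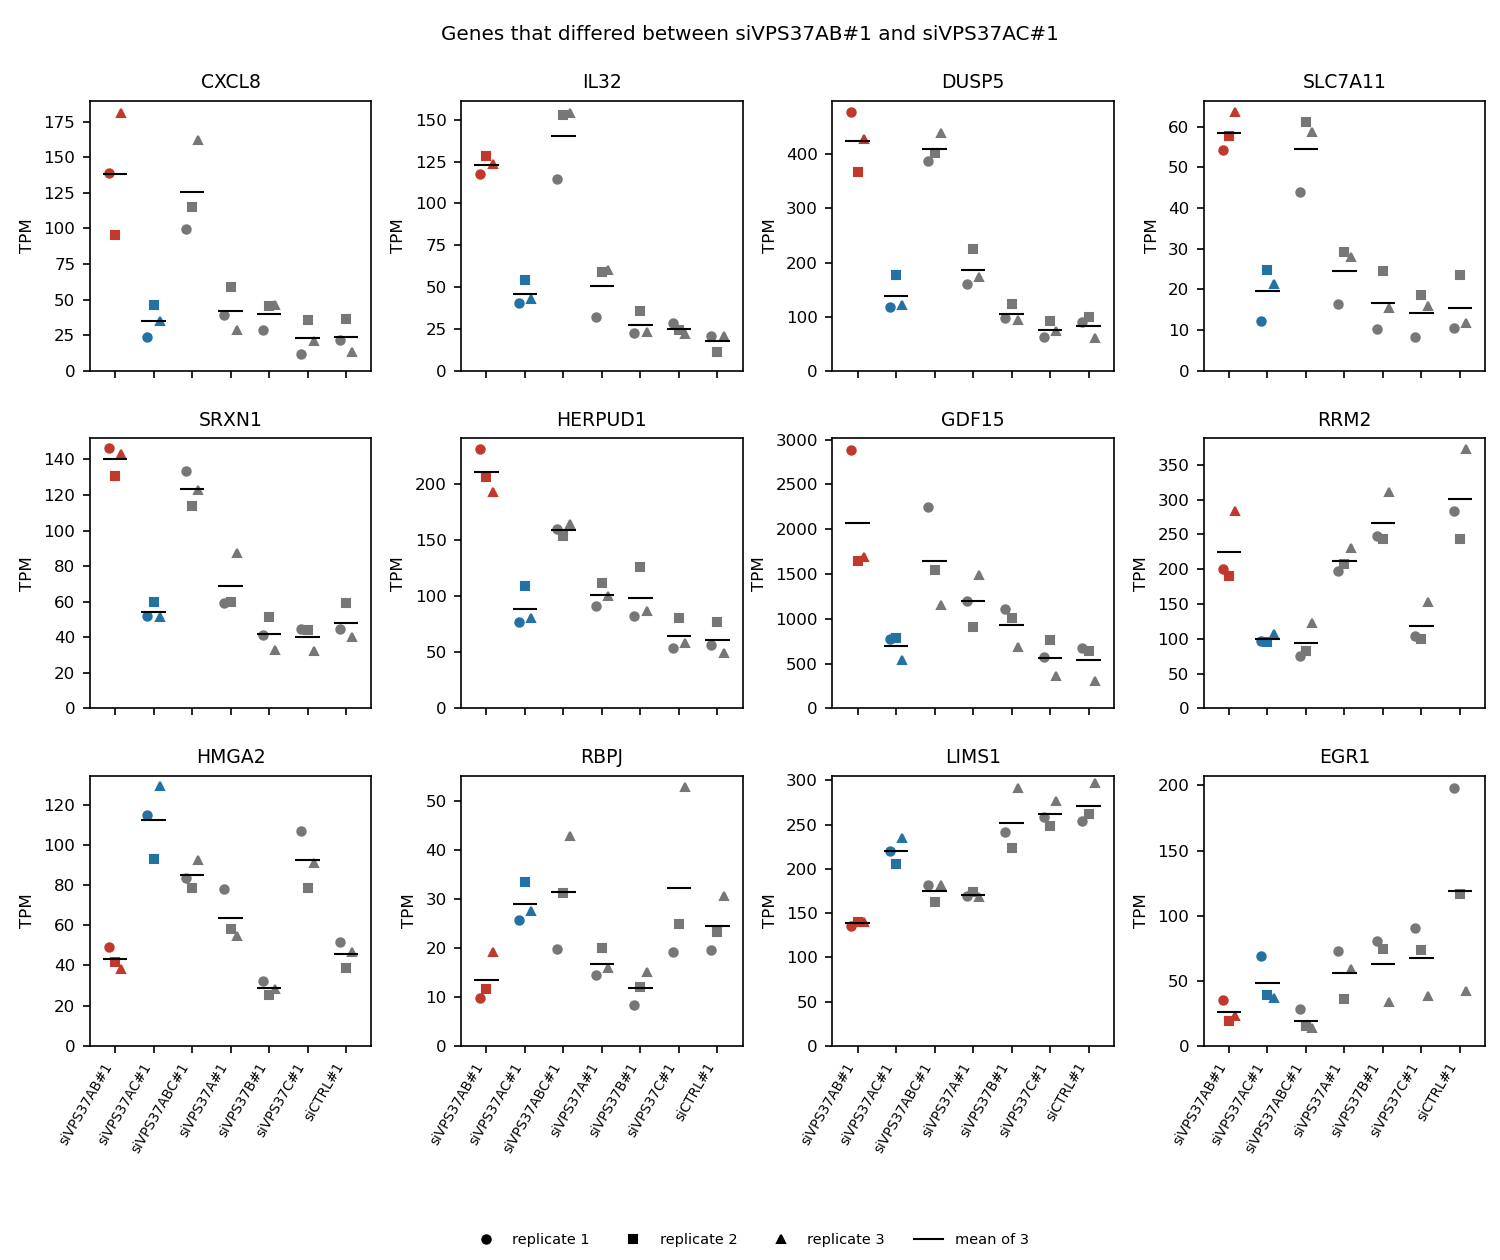
TPM (linear axes) of 12 genes in each library of 7 groups, with replicates as circles, squares and triangles and the mean of 3 as a bar; siVPS37AB#1 is red, siVPS37AC#1 blue and the other groups grey. IL32 lies at 118 to 128 TPM in siVPS37AB#1 and at 40.5 to 54.3 TPM in siVPS37AC#1, and HMGA2 at 38.2 to 49.3 and at 92.8 to 129 TPM.

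The unfolded protein response raises the folding and disposal capacity of the endoplasmic reticulum (ER). Of 20 tested ER chaperone and degradation genes 12 were higher and none lower, with a median of 0.44. HERPUD1, which takes part in degradation of ER proteins, had 232, 207 and 193 TPM in siVPS37AB#1, against 77.1, 109 and 80.6 TPM in siVPS37AC#1 (1.25 ± 0.17, adjusted p = 1.63e-05). DNAJB9, a co-chaperone, had 114, 78.8 and 101 TPM in siVPS37AB#1, against 45.6, 56.5 and 35.1 TPM in siVPS37AC#1 (1.09 ± 0.20, adjusted p = 5.70e-04). HYOU1, a chaperone of the HSP70 family, had 283, 331 and 342 TPM in siVPS37AB#1, against 156, 208 and 205 TPM in siVPS37AC#1 (0.75 ± 0.12, adjusted p = 1.03e-04). The 3 genes had no overlap between groups. The count of 12 was 5 without siVPS37AB#1 replicate 1, 7 without the block and 6 without pair 3. Against siCTRL#1 17 of the 20 were higher in siVPS37AB#1 and 4 in siVPS37AC#1.

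HSPA5, the major ER chaperone BiP, was not among the genes that differed. It had 541, 494 and 447 TPM in siVPS37AB#1 and 513, 549 and 419.6 TPM in siVPS37AC#1 (log2 0.00, adjusted p = 0.9901), with overlapping groups. The ER stress element, CCAAT and CCACG with 9 bases of any kind between them, on either strand, was searched in the promoters of 19 of the 20 genes and lies in 27 of all 35116 promoters (0.0769%). It was found for 2 of the 12 that rose, XBP1 and CRELD2 (0.48, adjusted p = 0.0120, but up to 0.0774 without siVPS37AB#1 replicate 3 or siVPS37AC#1 replicate 2), and for 5 of the 7 matched genes that were not called, HSPA5 among them. Windows of a gene with and a gene without a rise are shown with the match in capitals, at chr22:28800597-28800626 (minus strand) for XBP1 and chr9:125241385-125241414 (minus) for HSPA5 on GRCh38.p14.
XBP1: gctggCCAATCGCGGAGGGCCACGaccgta
HSPA5: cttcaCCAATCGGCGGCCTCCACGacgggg
XBP1, the transcription factor of the response, had 343, 331.9 and 341 TPM in siVPS37AB#1 and 242, 289 and 267 TPM in siVPS37AC#1 (0.35, adjusted p = 0.0328). Its call was lost on leaving out any library but siVPS37AB#1 replicate 2 (adjusted p up to 0.172), without the block (adjusted p = 0.135) and without pair 3 (adjusted p = 0.133).

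Targets of NRF2, the transcription factor of the antioxidant response, were higher in 8 of 14 tested cases and lower in none, with a median of 0.57. SLC7A11, the cystine importer, had 54.3, 57.7 and 63.6 TPM in siVPS37AB#1, against 12.2, 24.8 and 21.4 TPM in siVPS37AC#1 (1.59 ± 0.17, adjusted p = 6.20e-07). SRXN1, sulfiredoxin, had 146, 131 and 143 TPM in siVPS37AB#1, against 52.0, 59.6 and 51.5 TPM in siVPS37AC#1 (1.35 ± 0.16, adjusted p = 4.01e-06). Both genes separated the groups without overlap. NQO1, a quinone reductase, had 336, 431 and 431 TPM in siVPS37AB#1 and 182, 250.01 and 231 TPM in siVPS37AC#1 (0.85 ± 0.13, adjusted p = 1.29e-04), and its siCTRL#1 mean of 299 TPM lay between them. GCLM, a subunit of the enzyme that begins glutathione synthesis, rose by 0.83 ± 0.17 (adjusted p = 0.00184, and 0.0778 without pair 3). Without pair 3 the list count was 5. Against siCTRL#1 8 of the 14 were higher in siVPS37AB#1, and 1 was higher and 1 lower in siVPS37AC#1.

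The iron storage subunits FTL and FTH1, which NRF2 also controls, rose by 1.15 ± 0.18 (adjusted p = 1.71e-04) and 0.55 ± 0.10 (adjusted p = 4.81e-04). FTL had 6687, 7765 and 4132 TPM in siVPS37AB#1, against 2777, 3628 and 1962 TPM in siVPS37AC#1, and replicate 3 was the lowest in both groups. Ferritin genes have many processed copies in the genome, so their levels are uncertain. TFRC, the transferrin receptor that brings iron into the cell, had 125, 137 and 174 TPM in siVPS37AB#1 and 189.6, 195 and 239 TPM in siVPS37AC#1 (-0.52 ± 0.12, adjusted p = 0.00375, and 0.159 without the block).

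The amino acid and integrated stress genes under ATF4 were called higher in 5 of 21 cases and lower in none, with a median of 0.26. SLC7A11, which is in this list too, was the one member that kept its call in every omission. The count was 1 without siVPS37AB#1 replicate 1, 2 without siVPS37AB#1 replicate 3, 1 without siVPS37AC#1 replicate 1, 2 without the block, and 1 higher and 1 lower without pair 3. In the p53 list 4 of 10 were higher, among them CDKN1A, the cell cycle inhibitor p21, with 52.96, 53.02 and 51.1 TPM in siVPS37AB#1 and 16.0, 30.1 and 23.4 TPM in siVPS37AC#1 (1.19 ± 0.22, adjusted p = 6.06e-04). GADD45A, a growth arrest gene, rose by 0.65 ± 0.14 (adjusted p = 0.00250), but not without the block (adjusted p = 0.0647) or without pair 3 (adjusted p = 0.0646). Without pair 3 the p53 count was 2.

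**Figure D4:**
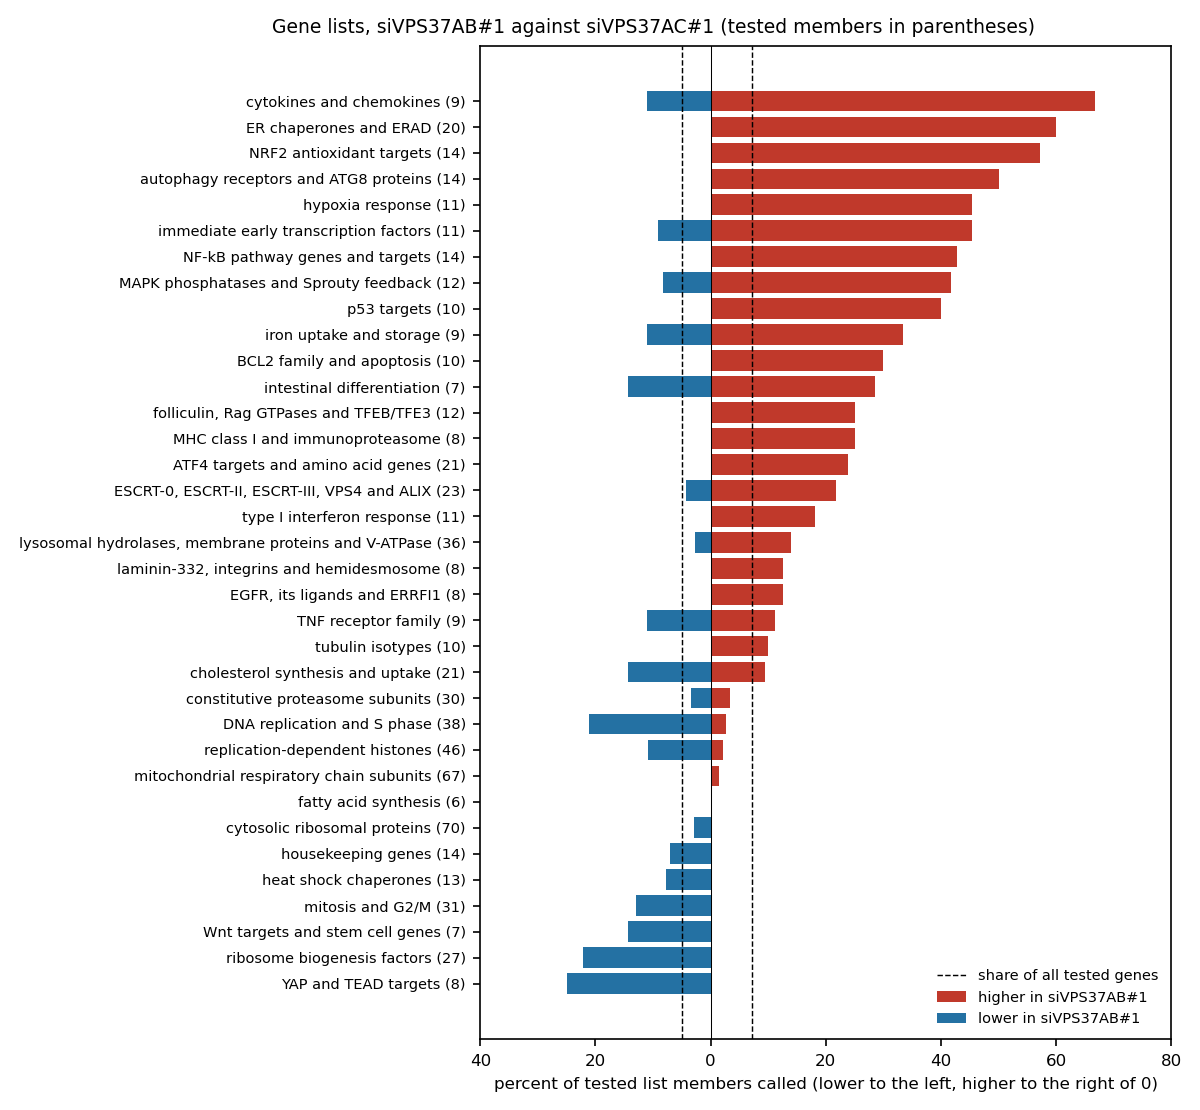
Percent of the tested members of gene lists (those with at least 6 tested members, which leaves out the 5 ESCRT-I subunits, and without the marker lists) called higher (red, to the right) or lower (blue, to the left) in siVPS37AB#1 than in siVPS37AC#1, with the number tested in parentheses; dashed lines mark 7.15% and 5.02%, the shares of all tested genes. Among the lists drawn, those of cytokines, ER, NRF2 and autophagy have the longest red bars, and ribosome biogenesis (6 of 27 lower) and DNA replication (8 of 38 lower) lie to the left. The lists were chosen with earlier results of these data known.

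Dual-specificity phosphatases switch off MAP kinases and are induced by them. DUSP5, which acts on ERK, had 478, 368 and 429 TPM in siVPS37AB#1, against 118, 176 and 122 TPM in siVPS37AC#1 (1.62 ± 0.16, adjusted p = 2.90e-07). DUSP8 and DUSP10, which act on JNK and p38, rose by 0.98 ± 0.15 (adjusted p = 1.21e-04) and 0.76 ± 0.14 (adjusted p = 7.18e-04). The lowest siVPS37AB#1 library was above the highest siVPS37AC#1 library for all 3 genes. The list as a whole also holds the Sprouty feedback genes SPRY2 and SPRED2, neither of which was called. Of its 12 tested members 5 were higher and 1, DUSP7, was lower (-0.64, adjusted p = 0.0214, but up to 0.106 without siVPS37AB#1 replicate 1 or 3 or siVPS37AC#1 replicate 2 or 3). In the list 3 were higher and none lower without siVPS37AB#1 replicate 1, without siVPS37AB#1 replicate 3, without pair 3 or without the block.

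Immediate early transcription factors, the first genes to answer growth factor and stress signals, were higher in 5 of 11 cases and lower in 1. With pair 3 left out 4 were higher, and without the block 5, with none lower in either case. ATF3 had 103, 59.0 and 71.0 TPM in siVPS37AB#1 and 34.3, 44.0 and 22.0 TPM in siVPS37AC#1 (1.21 ± 0.22, adjusted p = 4.57e-04). KLF6 rose by 0.85 ± 0.14 (adjusted p = 2.26e-04), JUND by 0.84 ± 0.14 (adjusted p = 1.75e-04) and BHLHE40 by 0.89 ± 0.17 (adjusted p = 8.89e-04). EGR1, an early target of ERK, went the other way, with 35.4, 18.8 and 22.6 TPM in siVPS37AB#1 and 69.1, 38.9 and 36.9 TPM in siVPS37AC#1 (-0.88 ± 0.26, adjusted p = 0.0253). Replicate 1 was the highest of its group in both, and the groups touch closely: the siVPS37AB#1 maximum of 35.4 TPM is just under the siVPS37AC#1 minimum of 36.9 TPM. The EGR1 call was lost without the block (adjusted p = 0.330), without pair 3 (adjusted p = 0.0589) and without siVPS37AB#1 replicate 1 (0.107) or 2 (0.134) or siVPS37AC#1 replicate 1 (0.0732) or 3 (0.106).

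Autophagy receptors, which bring ubiquitinated cargo to the autophagosome, and ATG8-pathway genes were higher in 7 of 14 cases and lower in none, with a median of 0.34. SQSTM1, the receptor p62 and itself an NRF2 target, had 1146, 1115 and 1207 TPM in siVPS37AB#1, against 501, 629 and 571 TPM in siVPS37AC#1 (1.03 ± 0.12, adjusted p = 2.57e-06). OPTN, another receptor, had 31.9, 33.3 and 37.2 TPM in siVPS37AB#1 and 18.9, 23.1 and 19.99 TPM in siVPS37AC#1 (0.70 ± 0.14, adjusted p = 0.00119). Neither gene overlapped. WIPI1, which binds the lipid of forming autophagosomes, rose by 0.98 ± 0.17 (adjusted p = 3.34e-04), and GABARAPL2, an ATG8 protein, by 0.56 ± 0.12 (adjusted p = 0.00270). The count was 4 without siVPS37AB#1 replicate 1, without pair 3 or without the block.

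In the lysosome list 5 of 36 tested genes were higher and 1 lower, with a median of 0.07, beside 7.15% and 5.02% of all genes. The lysosomal enzyme gene GLA, alpha-galactosidase, had 130.1, 138 and 207 TPM in siVPS37AB#1 and 85.1, 89.1 and 119.6 TPM in siVPS37AC#1 (0.67 ± 0.12, adjusted p = 3.10e-04, and 0.0575 without the block). Without siVPS37AC#1 replicate 1, without pair 3 or without the block, 3 of the list were called. TFE3, a transcription factor of lysosomal genes, rose by 0.63 ± 0.14 (adjusted p = 0.00293). In the remaining ESCRT machinery (ESCRT-0, -II and -III, VPS4 and ALIX) 5 of 23 genes were higher and 1 lower. The 1 that fell, CHMP4C, an ESCRT-III subunit that acts at the abscission checkpoint of cell division, had 20.4, 20.6 and 21.3 TPM in siVPS37AB#1 and 35.4, 36.5 and 43.7 TPM in siVPS37AC#1 (-0.86 ± 0.17, adjusted p = 0.00151). None of the 5 rises was called without siVPS37AB#1 replicate 1 or without the block, and 2 were called without siVPS37AC#1 replicate 1.

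Several genes of DNA replication fell, and 1 rose. Of 38 tested S phase genes 8 were lower and 1 higher in siVPS37AB#1, with a median of -0.18. UNG, which removes uracil from DNA, had 43.4, 55.1 and 57.7 TPM in siVPS37AB#1, against 76.1, 72.2 and 91.7 TPM in siVPS37AC#1 (-0.61 ± 0.10, adjusted p = 1.45e-04). The replication helicase and initiation genes MCM6 (-0.47 ± 0.11, adjusted p = 0.00450) and MCM10 (-0.46 ± 0.11, adjusted p = 0.00541) fell as well. Without siVPS37AB#1 replicate 1 the numbers were 3 lower and 1 higher, and without the block 4 and 1. A smaller share of cells in S phase and less of these transcripts per cell cannot be told apart in RNA of whole cultures.

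The gene that rose, RRM2, is the ribonucleotide reductase subunit that supplies DNA precursors. It had 200.4, 191 and 283 TPM in siVPS37AB#1, against 97.3, 94.8 and 106 TPM in siVPS37AC#1 (1.15 ± 0.13, adjusted p = 2.57e-06). The siCTRL#1 mean was 300.4 TPM. Means were 124, 119, 99.5 and 93.6 TPM in the groups given the VPS37C siRNA (siVPS37BC#1, siVPS37C#1, siVPS37AC#1 and siVPS37ABC#1) and at least 212 TPM in every other group.

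Ribosome biogenesis factors were lower in 6 of 27 cases and higher in none, with a median of -0.31. NOLC1, a nucleolar protein, had 305, 291 and 311 TPM in siVPS37AB#1 and 415, 346 and 459 TPM in siVPS37AC#1 (-0.42 ± 0.10, adjusted p = 0.00690, but 0.0606 without the block and 0.1013 without pair 3). NCL, nucleolin, fell by 0.47 ± 0.11 (adjusted p = 0.00741, but 0.0660 without siVPS37AC#1 replicate 1). The list count was 2 without siVPS37AB#1 replicate 3, 1 without siVPS37AC#1 replicate 1, 3 without siVPS37AC#1 replicate 2, 3 without pair 3 and 1 without the block.

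Outside the lists, HMGA2 and RBPJ were among the 12 largest falls of genes that averaged 20 TPM or more. HMGA2, an architectural chromatin protein, had 49.3, 41.5 and 38.2 TPM in siVPS37AB#1, against 115, 92.8 and 129 TPM in siVPS37AC#1 (-1.36 ± 0.14, adjusted p = 5.93e-07). Its siCTRL#1 mean was 45.8 TPM, so that siVPS37AC#1 stood above control (1.27, adjusted p = 1.85e-06) and siVPS37AB#1 did not differ past the threshold (-0.09, adjusted p = 0.696). RBPJ, the DNA-binding partner of Notch, had 9.82, 11.6 and 19.1 TPM in siVPS37AB#1, against 25.8, 33.4 and 27.6 TPM in siVPS37AC#1 (-1.09 ± 0.19, adjusted p = 3.10e-04). LIMS1, the focal adhesion protein PINCH1, fell less and was not among the 12 largest falls. It had 136, 139.7 and 139.5 TPM in siVPS37AB#1, against 219.9, 206 and 234 TPM in siVPS37AC#1 (-0.66 ± 0.09, adjusted p = 2.91e-05). Every one of these genes separated the groups.

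PRR9 had 11.01, 8.61 and 13.0 TPM in siVPS37AB#1, against 31.1, 40.5 and 31.4 TPM in siVPS37AC#1 (-1.58 ± 0.22, adjusted p = 2.51e-05), where siCTRL#1 averaged 4.41 TPM. S100A4, a calcium-binding protein linked to cell motility, had 50.8, 68.2 and 52.0 TPM in siVPS37AB#1, against 105, 155 and 167 TPM in siVPS37AC#1 (-1.29 ± 0.16, adjusted p = 8.26e-06). Both groups of libraries were apart in each case. LY6G6D (-1.32 ± 0.19), C2orf54 (-0.97 ± 0.17), the mitochondrial calcium sensor EFHD1 (-0.91 ± 0.13), the ATP-gated channel P2RX5 (-0.90 ± 0.15), the lipid phosphodiesterase GDPD3 (-0.88 ± 0.15) and the imprinted gene MEST (-0.84 ± 0.12) were further falls of such genes, with adjusted p between 3.32e-05 and 4.57e-04. THBS1, the matrix protein thrombospondin and a YAP target, fell by 0.79 ± 0.14 (adjusted p = 4.57e-04).

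In the hypoxia list 5 of 11 tested genes were higher and none lower, with a median of 0.28. The count was 3 without siVPS37AB#1 replicate 1, 2 without siVPS37AC#1 replicate 1, 3 without pair 3 and 2 without the block. ADM, a peptide hormone of that list, rose by 1.01 ± 0.20 (adjusted p = 0.00136). From further lists, some called members are given. CLDN4, a tight junction protein, had 377, 349 and 418 TPM in siVPS37AB#1 and 192, 199.6 and 185 TPM in siVPS37AC#1 (0.98 ± 0.12, adjusted p = 7.75e-06). LAMB3, a laminin chain of epithelial basement membranes, rose by 0.93 ± 0.17 (adjusted p = 4.57e-04). HLA-E, a class I molecule, rose by 0.52 ± 0.10 (adjusted p = 9.38e-04), PSMD13, a proteasome lid subunit, by 0.57 ± 0.10 (adjusted p = 4.57e-04), and PMVK, an enzyme of sterol synthesis, by 0.97 ± 0.20 (adjusted p = 0.00218). TUBB3, a tubulin isotype, rose by 0.80 ± 0.19 (adjusted p = 0.00670, but 0.115 without pair 3). Where 12.2% of all tested genes were called, 1 of 67 respiratory chain genes was (0 without siVPS37AB#1 replicate 3 or siVPS37AC#1 replicate 1, and 4 without siVPS37AC#1 replicate 3). Of 70 cytosolic ribosomal protein genes 2 were called (1 without siVPS37AB#1 replicate 1 or 3, or siVPS37AC#1 replicate 1 or 3).

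The same exchange of siRNAs exists without the VPS37A siRNA, in libraries that the comparison above did not use: siVPS37B#1 against siVPS37C#1. There 1222 of 6458 genes differed (18.9%), 581 higher (9.0%) and 641 lower (9.93%) in siVPS37B#1, with 464 called without the block, 685 without siVPS37B#1 replicate 1 and 611 without siVPS37C#1 replicate 3. Across the 6456 tested genes other than the paralogs, the 2 sets of log2 differences had Pearson's r of 0.61 and Spearman's rho of 0.58, given as a description across genes, which share the replicate numbers and the siRNA sequences. Of the 784 genes called for siVPS37AB#1 against siVPS37AC#1, 377 were called in the same direction for siVPS37B#1 against siVPS37C#1, which is 48.1% of the first set and 30.9% of the 1220 of the second. Another 5 were called in opposite directions. The sign was shared by 89.2% of the 784 genes and by 69.8% of all genes compared.

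Genes called for both exchanges included several of those above. RAB4B was higher in siVPS37B#1 than in siVPS37C#1 by 1.58 (adjusted p = 5.41e-07), RRM2 by 1.182 (adjusted p = 1.34e-06), POLD4 by 1.181 (adjusted p = 3.98e-05) and VPS28 by 0.80 (adjusted p = 0.00438). HMGA2 was lower by -1.65 (adjusted p = 2.56e-08), PRR9 by -2.38 (adjusted p = 5.53e-08), RBPJ by -1.28 (adjusted p = 3.98e-05) and CHMP4C by -0.86 (adjusted p = 0.00110). The small GTPase gene RAC3 (1.03 ± 0.17, adjusted p = 2.23e-04) and the pseudophosphatase gene STYX (-0.76 ± 0.15, adjusted p = 0.00124), which were named for their size in the exchange without the VPS37A siRNA, were called in the comparison with it too. For these genes the difference between both exchanges was not called.

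Lists differed more in their counts, beside 12.2% of all tested genes called with the VPS37A siRNA and 18.9% without it. Listed NRF2 targets were called in 8 of 14 cases with the VPS37A siRNA and in 0 without it (limma, unadjusted p under 0.05 for 1 of them). Of the NRF2 targets named above from other lists, SQSTM1 was called without the VPS37A siRNA (0.58, adjusted p = 0.0016). FTL and FTH1 were not (adjusted p = 0.158 and 0.451). ER genes were called in 12 of 20 cases with the VPS37A siRNA and in 4 without it (3 higher, 1 lower). The ER count without the VPS37A siRNA was near the share of all genes. NF-kB genes were called in 6 of 14 and in 1, and ATF4 genes in 5 of 21, all higher, and in 5, all lower. Autophagy genes were called in 7 of 14 cases with it and in 7 without it (6 higher, 1 lower), and ribosome biogenesis genes in 6 of 27, all lower, and in 12, all lower. These counts alone do not show a difference between the exchanges, which is tested gene by gene next.

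**Figure D5:**
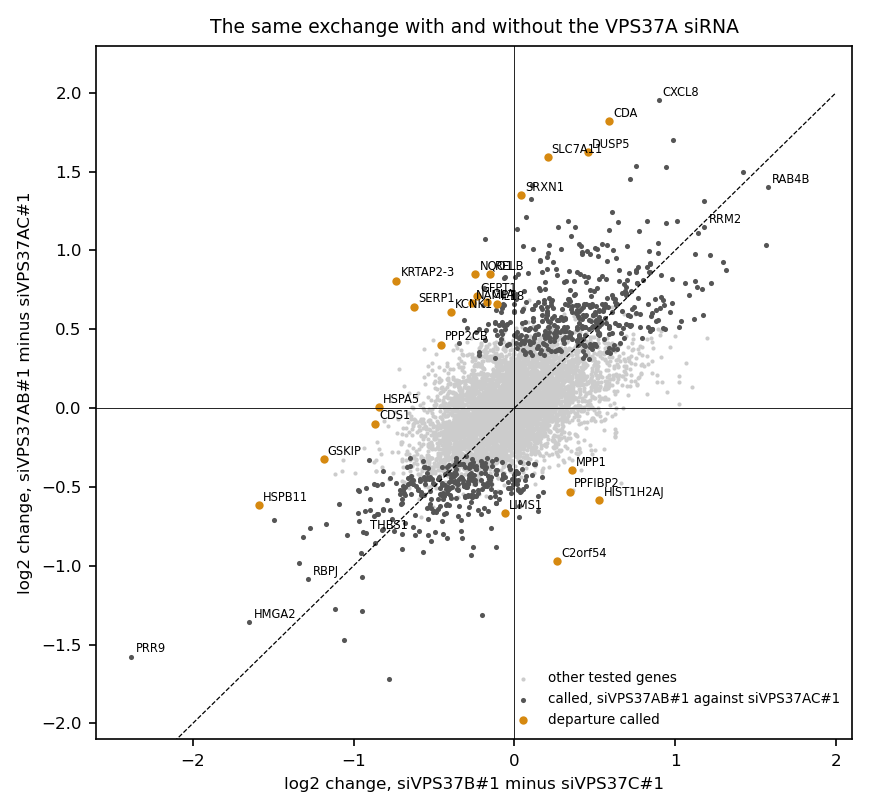
Log2 difference, siVPS37AB#1 minus siVPS37AC#1 (vertical), against that of siVPS37B#1 minus siVPS37C#1 (horizontal) for 6456 tested genes without the paralogs; dark points are called for the first comparison, orange points differ between both exchanges, and the dashed line marks equal values. RRM2 (1.15 and 1.182) and RAB4B (1.40 and 1.58) lie near the line, while SLC7A11 (1.59 and 0.21) and SRXN1 (1.35 and 0.04) lie far above it.

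The test of that difference, (siVPS37AB#1 - siVPS37AC#1) minus (siVPS37B#1 - siVPS37C#1), called 23 of 6458 genes (0.356%), 18 above (0.279%) and 5 below 0 (0.0774%). Quantile normalization called 26, 17 above and 9 below. SLC7A11 differed by 1.39 (adjusted p = 0.00753): the exchange moved it by 1.59 with the VPS37A siRNA and by 0.21 without it (adjusted p = 0.430). NQO1 differed by 1.10 (adjusted p = 0.00753; 0.85 and -0.24) and SRXN1 by 1.31 (adjusted p = 0.00753; 1.35 and 0.04). HSPB11, a protein of cilia transport, differed by 0.98 (adjusted p = 0.00753) in another manner, since it was lower in both exchanges, by -0.61 with the VPS37A siRNA and by -1.59 without it. GFPT1, the first enzyme of hexosamine synthesis and chosen after its values were seen, differed by 0.95 (adjusted p = 0.00753; 0.71 and -0.24). SLC7A11, NQO1, HSPB11 and GFPT1 kept this call in all 12 omissions of a library, and SRXN1 lost it without siVPS37AB#1 replicate 3 alone (adjusted p = 0.0511). The count of 23 was 8 without siVPS37AB#1 replicate 1, 47 without replicate 2 and 4 without replicate 3 of that group. It was 10, 12 and 11 without siVPS37AC#1 replicates 1, 2 and 3, 9 and 10 without siVPS37B#1 replicates 1 and 3, and 14, 7 and 12 without siVPS37C#1 replicates 1, 2 and 3. Without the block, and with pair 3 left out, no gene was called (limma, unadjusted p under 0.05 for 397 and 486 genes).

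The remaining groups place these differences. Because the same siVPS37AB#1 and siVPS37AC#1 libraries chose the genes, the following counts are descriptive. They cover called genes only, so whether all tested genes lean the same way is not known. Of the 461 genes other than the paralogs that were higher in siVPS37AB#1, the siCTRL#1 mean was nearer to siVPS37AC#1 for 381 (82.6%), and the siVPS37ABC#1 mean was nearer to siVPS37AB#1 for 312 (67.7%). Of the 323 that were lower, the siCTRL#1 mean was nearer to siVPS37AC#1 for 203 (62.8%) and the siVPS37ABC#1 mean nearer to siVPS37AB#1 for 245 (75.9%). The median of the 461 was 0.58 above siCTRL#1 in siVPS37AB#1 and 0.02 above it in siVPS37AC#1, and that of the 323 was -0.33 in siVPS37AB#1 and 0.17 in siVPS37AC#1.

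Tests against siCTRL#1 gave 1652 called genes for siVPS37AB#1 (25.6%) and 762 for siVPS37AC#1 (11.8%), with the controls shared. Within each replicate the siCTRL#1 library number (88, 88 and 603) differed from those of both groups. Across replicates, siVPS37AC#1 replicate 3 shared number 88 with controls, and no siVPS37AB#1 library (80, 84 and 89) shared a number with them. Higher genes made up 18.1% and 8.3% of all tested and lower genes 7.53% and 3.5%. These calls were not rerun without the block or with libraries left out. Of the 461 higher genes, 272 rose over siCTRL#1 in siVPS37AB#1 and were not called in siVPS37AC#1, 60 rose in both, and 46 fell in siVPS37AC#1 and were not called in siVPS37AB#1. GDF15, TNIP1 and DUSP8 were of the first kind, with 1.98, 0.83 and 1.22 over siCTRL#1 in siVPS37AB#1 (adjusted p = 1.29e-06, 7.48e-05 and 1.68e-06). IL32, CDA and KLF6 rose in both, by 2.77, 3.54 and 1.53 in siVPS37AB#1 and by 1.36, 1.72 and 0.68 in siVPS37AC#1. For CDA the control siRNA itself was low: CDA averaged 53.6 TPM in siVPS37AB#1, 15.4 TPM in siVPS37AC#1, 3.85 TPM in siCTRL#1 and 16.6 TPM in NT, so siVPS37AC#1 was near the level of untransfected cells. PMVK and PSMD13 were among the 46, with -1.01 (adjusted p = 0.00186) and -0.37 (adjusted p = 0.0187) in siVPS37AC#1. Of the 323 lower genes, 136 fell below siCTRL#1 in siVPS37AB#1 alone by call, and 60 rose in siVPS37AC#1 alone by call, with HMGA2 and MEST among these 60.

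When VPS37A, VPS37B and VPS37C were all targeted, fewer genes were called against siVPS37AB#1 than against siVPS37AC#1. The triple knockdown siVPS37ABC#1 differed from siVPS37AB#1 in 213 of 6458 genes (3.3%, with 1.33% higher and 1.97% lower in the triple knockdown) and from siVPS37AC#1 in 789 (12.2%, with 5.81% higher and 6.41% lower). Both comparisons share the triple libraries, and the difference between these counts was not tested. DUSP5 averaged 409.5 TPM in siVPS37ABC#1, SLC7A11 54.6 TPM and SQSTM1 1275 TPM, against 424.8, 58.5 and 1156 TPM in siVPS37AB#1, and none of the 3 was called between these groups. CDA was higher again, at 101.5 TPM in siVPS37ABC#1 against 53.6 TPM in siVPS37AB#1 (0.91, adjusted p = 0.00716). Of the 461 genes that were higher in siVPS37AB#1 than in siVPS37AC#1, 109 had a siVPS37ABC#1 mean above both groups, a count that was made for called genes only. RRM2, PMVK and RAB4B went with siVPS37AC#1 or lay between, at 93.6, 15.2 and 19.4 TPM in siVPS37ABC#1.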

How the data were processed

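Per the labels, RNA of DLD1 cells was measured with an Ion AmpliSeq transcriptome panel in 27 libraries of 9 groups with 3 replicates each, 72 h after transfection. Replicates are labelled as biological, with a batch equal to the replicate number. No other label tells whether cultures were separate, so p-values measure the spread between these libraries. HTSeq 0.6.0, DESeq2 1.18.1 and hg19 are listed, with no role given, per the submitters' processing notes.

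The single deposited table holds 10470 genes. The authors' values sum to 1000000 in each library and were taken as TPM in that sense. Whole reads could not be recovered, so depth is unknown and no count test was run. Another 2157 lines without an identifier were left out.

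Values were analysed as log2(TPM + 1) in limma 3.58.1 (R 4.3.3), with a mean for each group, the replicate number as a block, which leaves 16 residual degrees of freedom, and a prior variance that follows the mean level. Tests cover the 6458 genes averaging 10 TPM or more, with Benjamini-Hochberg adjustment within each comparison. Values of genes under that mean are from the fit to all genes.

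The block follows the batch in the labels. After removal of group means, siVPS37AB#1 and siVPS37AC#1 libraries of replicates 1, 2 and 3 correlated at 0.55, 0.44 and 0.39 across genes. The fit was tested on simulated data with known changes.

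The members and the 40 gene lists were chosen with earlier results of these data known. Genes were named by a rule. It took the paralogs, the ESCRT-I subunits and the 12 largest called rises and falls among genes averaging 20 TPM or more whose pairs share a sign. It also took 5 each way for the exchange without the VPS37A siRNA and for the difference between exchanges, and up to 4 called members of each list (2 as values where none was called). Some are left out for length.

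Promoters are those of RefSeq on GRCh38.p14, and the kB consensus was searched on both strands. Alternatives were no block, the library number that ends each description in place of the block, no filter, a filter at 50 TPM, quantile normalization, a pseudocount of 8, only the groups compared, omission of each library, and omission of pair 3. Python 3.11.15, pandas 2.3.3 and matplotlib 3.10.9 were also used.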

Additional observations from a re-analysis of the deposited data

Results flagged for a closer look

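A limma test of the difference between the exchange with the VPS37A siRNA (siVPS37AB#1 minus siVPS37AC#1) and without it (siVPS37B#1 minus siVPS37C#1) called 23 of 6458 genes (0.356%). Among the genes named by the rule, 14 were called. The rule itself took the largest such differences each way, so part of that count follows from it. The difference of the log2 changes was above 0 for 11 of the 14. It was 1.54 for KRTAP2-3, 1.39 for SLC7A11, 1.31 for SRXN1, 1.27 for SERP1, 1.23 for CDA, 1.17 for DUSP5, 1.10 for NQO1, 1.00 for RELB, 0.98 for HSPB11, 0.86 for GSKIP and 0.84 for GLA. It was -1.23 for C2orf54, -1.11 for HIST1H2AJ and -0.60 for LIMS1. Adjusted p of the 14 lay between 0.00753 and 0.0419. Outside the rule, the difference was also called for GFPT1, given above, for IL18 (0.77, adjusted p = 0.0309) and for HSPA5 (0.85, adjusted p = 0.0335). HSPA5 stood at 0.00 with the VPS37A siRNA and at -0.84 without it. IL18 lost this call in 10 and HSPA5 in 9 of 12 omissions of a library.

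KRTAP2-3, a hair keratin-associated protein gene, had log2 differences of opposite sign, at 0.81 with the VPS37A siRNA and -0.73 without it, as did SERP1, an ER membrane protein gene, at 0.64 and -0.62, and the histone gene HIST1H2AJ, at -0.58 and 0.53. The calls for siVPS37AB#1 against siVPS37AC#1 behind these values did not hold throughout. SERP1 lost its call in 5 of 6 omissions of a library, without the block (adjusted p = 0.212) and without pair 3 (0.166). KRTAP2-3 lost it without siVPS37AB#1 replicate 3 (0.0502), without the block (0.0923) and without pair 3 (0.109), and HIST1H2AJ without replicate 3 of either group (up to 0.0979) and without pair 3 (0.218). KRTAP2-3 and HIST1H2AJ belong to families with near-identical copies, so their values are uncertain.

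None of these differences was called without the block or with pair 3 left out. SLC7A11, NQO1 and HSPB11 kept theirs in all 12 omissions of a library. KRTAP2-3 and SRXN1 lost it without siVPS37AB#1 replicate 3 alone (adjusted p = 0.0511 for both), and the other 9 lost it in 5 to 10 omissions, with adjusted p up to 0.186.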

How the results depend on the processing

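The count of genes differing between siVPS37AB#1 and siVPS37AC#1 (786) was 331 with no replicate block, 324 at a mean of at least 50 TPM, 1209 with no filter, 1718 with only the groups compared and 403 with pair 3 left out of both groups, and between 401 and 701 on leaving out single libraries. For siVPS37B#1 against siVPS37C#1 (1222) it was 464 with no replicate block, 502 at a mean of at least 50 TPM and 2017 with only the groups compared, and between 611 and 1091 without single libraries. The difference between both exchanges (23) gave 0 with no replicate block and 0 with pair 3 left out, 10 with the library number as the term, 14 at 50 TPM, 36 with no filter, and between 4 and 47 without single libraries. Quantile normalization gave 883 genes, 447 higher and 436 lower, for the first comparison and 26, 17 higher and 9 lower, for the difference between exchanges. The cause of these shifts was not tested, apart from the filters, which change the number of genes tested. Of 125 named genes called for siVPS37AB#1 against siVPS37AC#1, 64 kept the call in every alternative that tests them and 61 lost it in at least 1. It was lost by 45 with no replicate block, by 46 with pair 3 left out and by 22 with the library number in place of the block. None of these 125 named genes reversed its direction in any of these alternatives, which was examined for named genes only. Depth is unknown and limits the low genes most.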
